A study of Homo sapiens with 4 samples.

Results

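The mRNAs of the Caprin-1 and G3BP complex were followed in RNA recovered with control IgG or an antibody to EXOSC10. The members are 7 genes chosen by symbol, CAPRIN1, CAPRIN2, G3BP1, G3BP2, USP10, UBAP2L and NUFIP2, out of 12838 gene symbols in the deposited table. All 7 had entries, between 1 and 16 each, which were summed per gene. The rule itself is a list of names and uses no measured value, but it was written with earlier results of these data known.

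Stress granules are cytoplasmic assemblies of untranslated mRNA and protein that form when translation initiation is blocked. G3BP1 and its paralogue G3BP2 are the RNA-binding proteins that nucleate them. Caprin-1 binds the same N-terminal domain of G3BP as the deubiquitinase USP10 does; Caprin-1 favours condensation and USP10 opposes it. UBAP2L and NUFIP2 are further RNA-binding partners of this network. The transcripts of these proteins, not the proteins themselves, were measured here.

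The cells were LM2-4175, a lung-metastatic derivative of the breast carcinoma line MDA-MB-231. In all groups they stably carried CerS4, a ceramide synthase, on a construct that doxycycline induces, and grew in puromycin and hygromycin. They were left untreated or given 5 µg/mL doxycycline for 48 h. RNA was then immunoprecipitated with control IgG or with an antibody to EXOSC10, a catalytic subunit of the RNA exosome that trims RNA from its 3′ end in the nucleus. The study asked how the PD-L1 and Caprin-1 complex bears on mRNA degradation when lipid metabolism is altered, and compared EXOSC10-bound RNA without and with doxycycline. Each of the 4 combinations was 1 library, so a difference between single libraries has no replicate check. No group lacked the construct, so the drug itself and the induction of CerS4 cannot be told apart. CERS4 and CD274, which encodes PD-L1, have no entry analysed here.

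The libraries held between 3723429 and 7575271 estimated reads, of which 56.3% to 83.8% lay on ribosomal RNA genes. The share was lowest and the number of other reads highest, 2408292, in the doxycycline EXOSC10 library. The other libraries had 1023384 to 1229767 such reads. All 8 markers of the MDA-MB-231 lineage had entries, with summed TMM-scaled levels of 548 to 1326 CPM. Of the markers of other cells, 5 of 7 for luminal epithelium had entries (81.0 to 123 CPM in sum), 1 of 7 for blood, 1 of 3 for endothelium (31 reads or fewer) and 0 of 3 for fibroblasts. ESR1 and EPCAM have no entry analysed here.

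Together the 7 genes took 2812 of every 1000000 non-ribosomal reads with IgG in untreated cells and 2715 with IgG in doxycycline. With EXOSC10 they took 1999 untreated and 1994 with doxycycline. The summed share was thus lower with EXOSC10 in both treatments and nearly the same without and with doxycycline. The single genes departed from this in both directions, as the following values show. Levels are in CPM after TMM scaling, which sets the bulk of genes equal between libraries, and are given for untreated cells (IgG, then EXOSC10) and then for doxycycline (IgG, then EXOSC10).

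**Figure D1:**
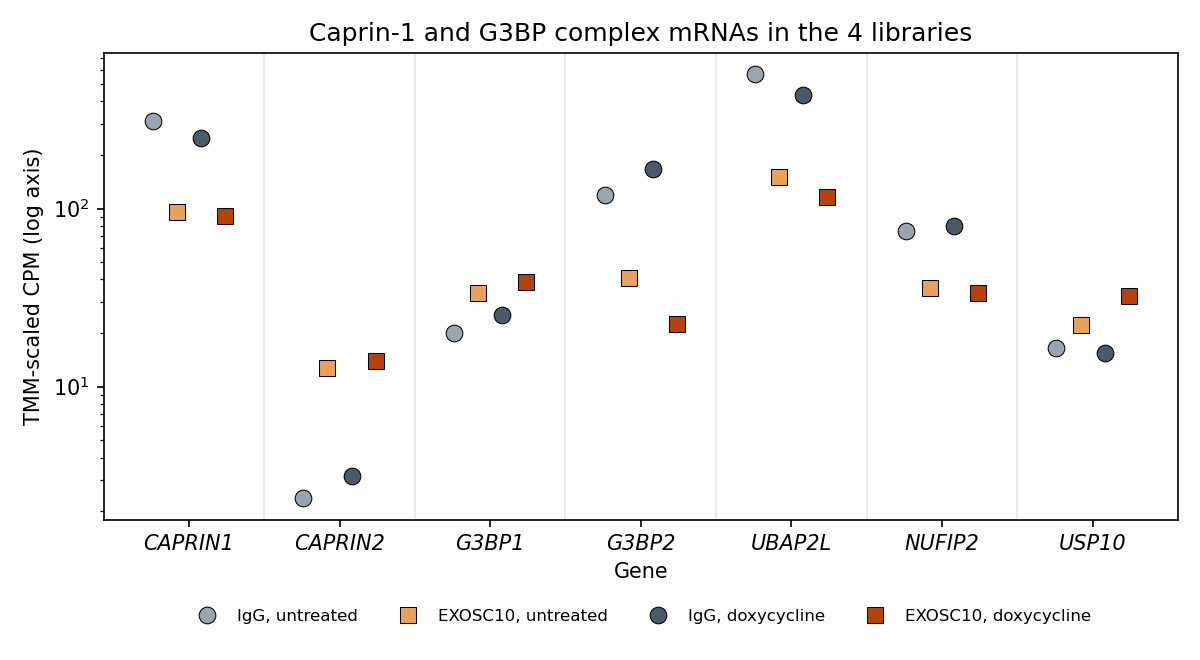
TMM-scaled CPM (log axis) of the 7 mRNAs, 1 point per library, circles for IgG and squares for EXOSC10, light for untreated and dark for doxycycline. CAPRIN1, G3BP2, UBAP2L and NUFIP2 are lower in both EXOSC10 libraries than in both IgG libraries, and CAPRIN2, G3BP1 and USP10 are higher; levels of different genes are not comparable, since they are not per length.

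The transcripts of the paralogous nucleators lay on opposite sides of IgG. G3BP1, on chromosome 5 from 151771954 to 151812785 (GRCh38.p14), was at 19.9 CPM (IgG) and 33.8 (EXOSC10) in untreated cells and at 25.4 (IgG) and 38.9 (EXOSC10) with doxycycline. These rest on 53.0, 177, 87.0 and 537 reads. Both EXOSC10 libraries were above both IgG libraries. G3BP2, on chromosome 4 from 75642786 to 75724437, was at 120, 40.9, 167 and 22.6 CPM in the same order, from 320, 214, 573 and 312 reads. Here both EXOSC10 libraries were below both IgG libraries, and the doxycycline EXOSC10 library was lowest.

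The Caprin paralogues were split as well. CAPRIN1, on chromosome 11 from 34051731 to 34102610, was at 311 CPM (IgG) and 95.3 (EXOSC10) in untreated cells and at 249 (IgG) and 90.7 (EXOSC10) with doxycycline, from 826, 499, 852 and 1251 reads. The antibody separated the libraries of this mRNA and the EXOSC10 libraries lay close together. CAPRIN2, on chromosome 12 from 30709553 to 30754951, encodes a second RNA-binding Caprin protein. It was at 2.36, 12.8, 3.13 and 14.0 CPM in that order, from 6.27, 67.2, 10.7 and 193 reads. Its level was thus higher with EXOSC10, against IgG libraries that held few reads of it.

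UBAP2L, which encodes a protein upstream of G3BP in granule assembly, lies on chromosome 1 from 154220172 to 154271510. It was at 569 CPM (IgG) and 150 (EXOSC10) in untreated cells and at 435 (IgG) and 116 (EXOSC10) with doxycycline, from 1512, 784, 1491 and 1600 reads. NUFIP2, a partner of the fragile X protein FMRP, lies on chromosome 17 from 29255839 to 29294148 and was at 75.2, 35.9, 79.4 and 33.5 CPM, from 200, 188, 272 and 462 reads. Both followed CAPRIN1 in being lower with EXOSC10. USP10, on chromosome 16 from 84700000 to 84779922, was at 16.4, 22.3, 15.5 and 32.5 CPM, from 43.6, 117, 53.0 and 448 reads. The doxycycline EXOSC10 library was highest for USP10.

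Over both treatments, EXOSC10 against IgG was tested by limma with treatment as covariate, which leaves 1 residual degree of freedom and lets the treatment stand in for replication. Of the 7 mRNAs, 4 were lower and 1 was higher at an adjusted p under 0.05. Over all 9594 genes tested, 15.9% were lower and 1.36% higher. G3BP2 was lower by the largest amount, with a log2 difference of -2.21 (SE 0.33, limma adjusted p = 0.00267). UBAP2L stood at -1.92 (SE 0.26, limma adjusted p = 0.00203), CAPRIN1 at -1.58 (SE 0.25, limma adjusted p = 0.00326) and NUFIP2 at -1.15 (SE 0.25, limma adjusted p = 0.0146). CAPRIN2 was higher, at 2.22 (SE 0.51, limma adjusted p = 0.0176).

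G3BP1 (0.68, SE 0.28) and USP10 (0.75, SE 0.32) were not called, with limma adjusted p-values of 0.139 and 0.157. Summed over entries, both had higher EXOSC10 than IgG values in both treatments; with the largest entry only, G3BP1 turned to -1.27 with doxycycline. The calls rest on the trend that limma fits between level and variance: without it, the adjusted p-values of the 5 called mRNAs ran from 0.125 to 0.176 and 0 of all genes passed. With libraries scaled by total counts, 0 of the 7 passed, and by non-ribosomal reads 2 were lower (G3BP2 and UBAP2L) and 3 higher (CAPRIN2, G3BP1 and USP10). All genes together also moved toward higher under both scalings, with splits given below, so these counts are not particular to the members.

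Between single libraries a gene counts here as different where both libraries together held 100 reads and the ratio reached 2-fold. Untreated, EXOSC10 over IgG, 4 of 6 members with 100 reads were lower and 0 higher; among all 3619 genes with 100 reads 36.0% were lower and 5.36% higher. CAPRIN1 was 3.25-fold lower, a log2 ratio of -1.70 (95% interval -1.87 to -1.54, for counting error only). UBAP2L was at -1.92 (-2.05 to -1.80), G3BP2 at -1.55 (-1.81 to -1.30) and NUFIP2 at -1.06 (-1.36 to -0.77). On the other side, G3BP1 was at 0.76 (0.31 to 1.23) and USP10 at 0.44 (-0.07 to 0.98). CAPRIN2 had 73.5 reads here, below the minimum, and was at 2.35 (1.27 to 3.90). The median of all genes with 100 reads was itself -0.45. Among these genes UBAP2L lay at percentile 10.6, CAPRIN1 at 16.4, G3BP2 at 20.9 and NUFIP2 at 34.6. USP10 lay at 77.9 and G3BP1 at 89.0.

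With doxycycline, EXOSC10 over IgG, all 7 members had 100 reads: the same 4 mRNAs were lower, and CAPRIN2 and USP10 were higher. Among 6279 genes 26.6% were lower and 14.0% higher. G3BP2 was 7.34-fold lower, at -2.88 (-3.09 to -2.69), which is percentile 2.10 of the genes with 100 reads. UBAP2L was at -1.91 (-2.01 to -1.81), percentile 12.3, CAPRIN1 at -1.45 (-1.58 to -1.33), percentile 19.0, and NUFIP2 at -1.24 (-1.46 to -1.02), percentile 22.5. The median of these genes was 0.04. CAPRIN2 was at 2.09 (1.28 to 3.20), percentile 97.7, USP10 at 1.06 (0.66 to 1.51), percentile 87.5, and G3BP1 at 0.61 (0.29 to 0.96), percentile 73.1.

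**Figure D2:**
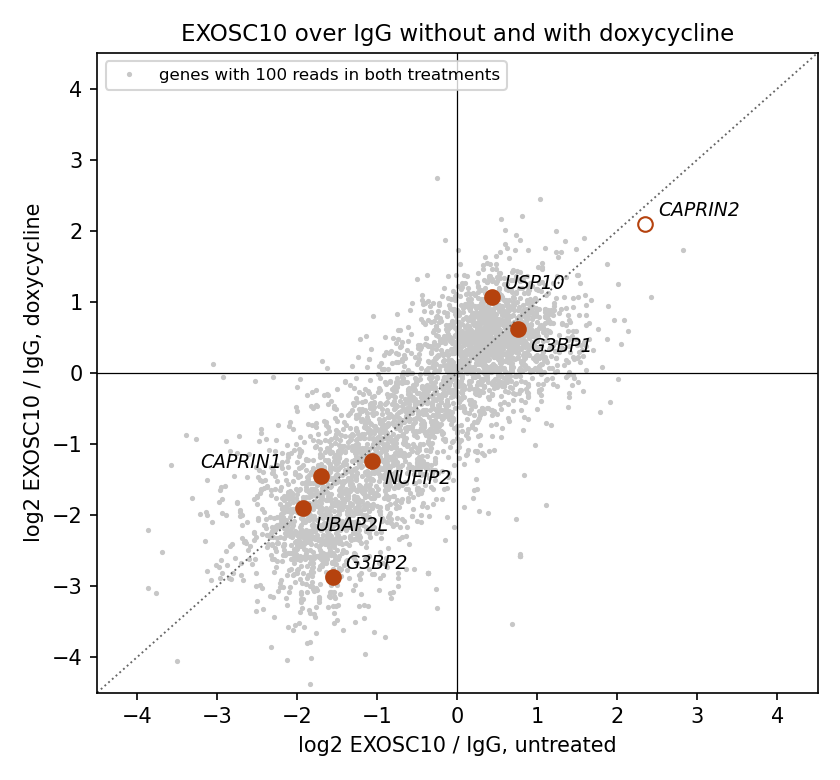
Log2 ratio of EXOSC10 over IgG in untreated cells (horizontal) against the same with doxycycline (vertical), for genes with 100 reads in both treatments (grey) and the 7 mRNAs (red; CAPRIN2 is open because it had 73.5 reads untreated). CAPRIN1, UBAP2L and NUFIP2 lie near the dotted line of equal ratios, while G3BP2, at -1.55 and -2.88, lies below it; the axes stop at 4.5 and leave out 7 genes beyond that.

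The sign of an EXOSC10 over IgG ratio can turn with the scaling. Total counts in place of TMM moved the median of all tested genes by 0.79 untreated and 2.43 with doxycycline in EXOSC10 over IgG, and by 1.01 in the EXOSC10 pair and -0.65 in the IgG pair. Non-ribosomal totals moved it by 1.01 and 1.03, and by 0.16 and 0.14. Under the 5 scalings tried, CAPRIN2, G3BP1 and USP10 stayed above IgG and G3BP2 below IgG in both treatments. CAPRIN1, UBAP2L and NUFIP2 were below IgG too, except with total counts in doxycycline, where they were at 1.01, 0.56 and 1.22.

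The order of the mRNAs relative to each other needs no scaling, because the reads of 2 genes in the same library share it. The reads of each member were therefore set against those of CAPRIN1. Of 24 such changes, 6 mRNAs in 4 comparisons, 16 had an interval that left out 0. The same share was not computed for other genes against CAPRIN1. CAPRIN1 itself lay low in EXOSC10 over IgG, at percentile 16.4 untreated and 19.0 with doxycycline among the genes with enough reads. Most of those genes were thus higher relative to it, so a rise against CAPRIN1 is not by itself particular to these mRNAs. From IgG to EXOSC10 in untreated cells, reads of G3BP1 per read of CAPRIN1 were 5.53-fold higher (log2 2.47, 2.0 to 2.94), and those of USP10 4.42-fold (2.14, 1.62 to 2.67). CAPRIN2 was 17.8-fold higher on this measure (4.15, 2.96 to 5.34), with 6.27 reads as the smallest number behind it. With doxycycline the values were 4.20-fold for G3BP1, 5.76-fold for USP10 and 12.3-fold for CAPRIN2. The G3BP1 value depends on summing its entries. Its second entry held 2.55 (IgG) and 388 (EXOSC10) reads with doxycycline, and its first 84.4 and 149. The larger CAPRIN1 entry held 818 and 1174.

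UBAP2L kept close to CAPRIN1, at -0.22 (-0.42 to -0.02) untreated and -0.45 (-0.61 to -0.29) with doxycycline. NUFIP2 was at 0.64 (0.31 to 0.97) and 0.21 (-0.04 to 0.46). G3BP2 did not differ from CAPRIN1 beyond counting error untreated (0.15, -0.15 to 0.44) and was 2.70-fold lower relative to it with doxycycline (-1.43, -1.67 to -1.20).

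**Figure D3:**
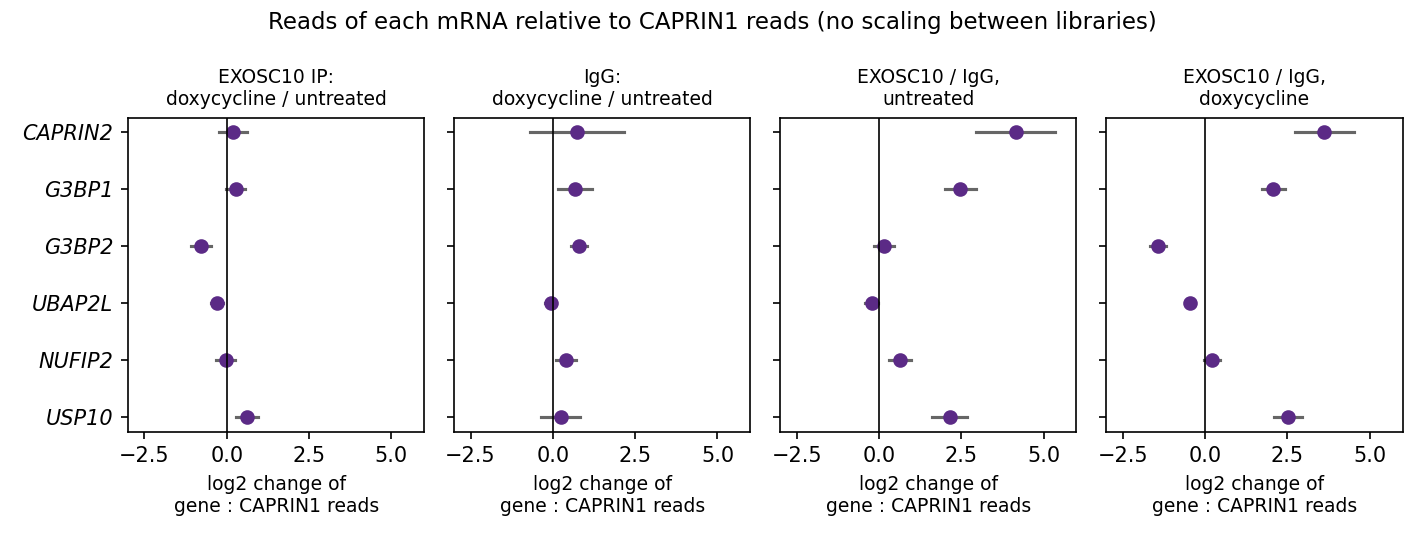
Log2 change of the reads of 6 mRNAs relative to CAPRIN1 reads between the libraries named above each panel, with 95% intervals for counting error. CAPRIN2, G3BP1 and USP10 lie to the right in both EXOSC10 over IgG panels, between 2.07 and 4.15; G3BP2 lies at -0.78 in the EXOSC10 pair and at 0.80 in the IgG pair.

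For the primary comparison, EXOSC10-bound RNA with doxycycline over untreated, 0 of the 7 mRNAs reached 2-fold in either direction. Among all 6584 genes with 100 reads 6.06% were higher and 3.98% lower. CAPRIN1 was near the middle of all genes, at percentile 47.5. USP10 had the highest ratio of the 7, at 0.54 (0.25 to 0.85), followed by G3BP1 at 0.20 (-0.04 to 0.46), CAPRIN2 at 0.12 (-0.28 to 0.55), CAPRIN1 at -0.07 (-0.22 to 0.08) and NUFIP2 at -0.10 (-0.35 to 0.15). UBAP2L was lower, at -0.37 (-0.49 to -0.24), and G3BP2 lowest, at -0.85 (-1.11 to -0.60), percentile 7.0. Neighbours in this order had overlapping intervals, except UBAP2L and G3BP2. With total counts every ratio was positive, from 0.16 for G3BP2 to 1.55 for USP10. A change of scaling moves all ratios of a pair by nearly the same amount, so the order of the 7 could hardly change.

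With control IgG, doxycycline over untreated, 0 of the 5 members with 100 reads reached 2-fold, where 2.97% of 3027 genes were higher and 3.44% lower. G3BP2 was at 0.48 (0.28 to 0.68), G3BP1 at 0.35 (-0.16 to 0.87) and NUFIP2 at 0.08 (-0.19 to 0.35). CAPRIN1 was at -0.32 (-0.46 to -0.18) and UBAP2L at -0.38 (-0.49 to -0.28). CAPRIN2 and USP10 had 17.0 and 96.6 reads, below the minimum, with intervals of -1.14 to 2.10 and -0.69 to 0.53. G3BP2 was thus lower with EXOSC10 and higher with IgG under TMM, and turned to 0.16 and -0.18 with total counts. UBAP2L, below 0 with both antibodies, was at 0.65 with EXOSC10 and -1.04 with IgG under total counts, and at 0.45 and 0.38 with the largest entry only.

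**Figure D4:**
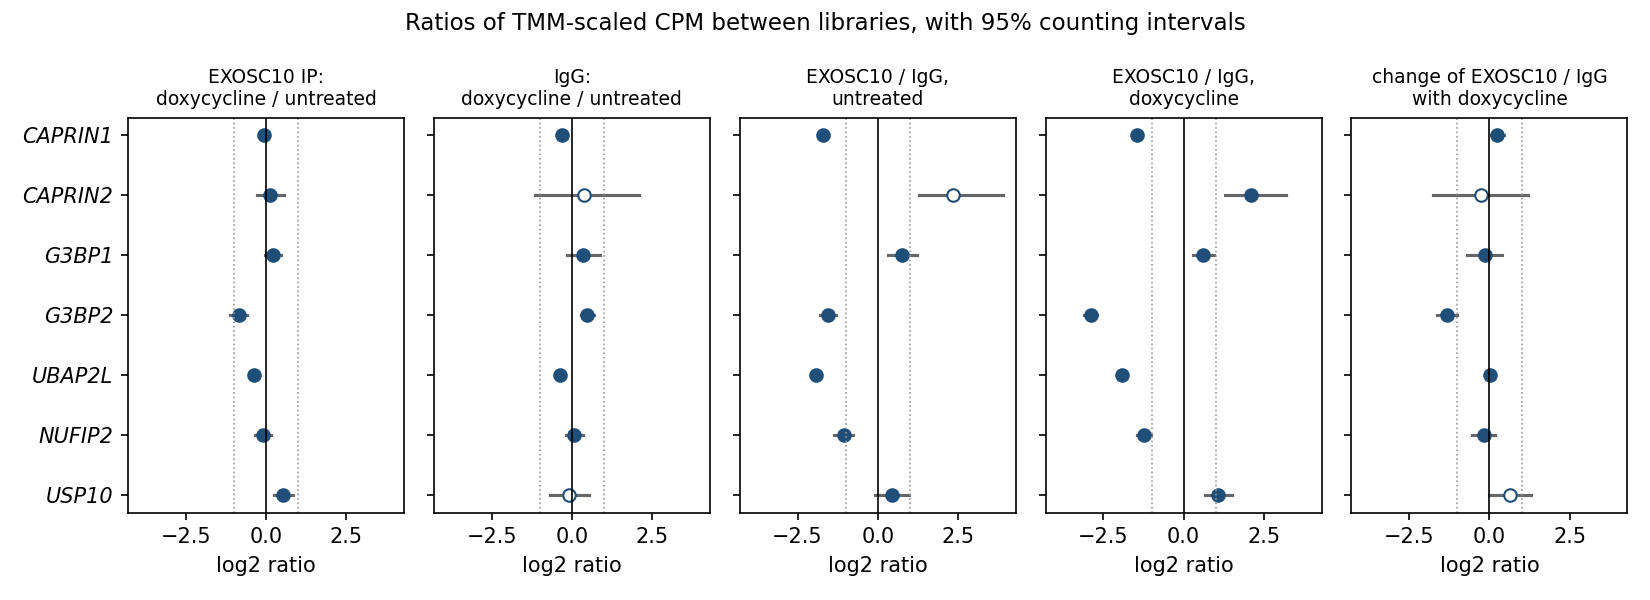
Log2 ratios of TMM-scaled CPM of the 7 mRNAs for 5 comparisons, with 95% intervals for counting error; open points are below 100 reads, and dotted lines mark 2-fold. The doxycycline ratios lie within 2-fold in both antibodies, from -0.85 to 0.54, and G3BP2 at -1.32 is the mRNA beyond 2-fold in the last panel.

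The difference between both treatments in EXOSC10 over IgG was -1.32 for G3BP2 (-1.65 to -1.01), or 2.50-fold lower enrichment with doxycycline. It was the 1 member of 5 with enough reads to reach 2-fold; 10.9% of 2946 genes were 2-fold lower and 4.75% higher. G3BP2 lay at percentile 5.53, and the value turned to 0.35 with total counts. CAPRIN1 was at 0.25 (0.04 to 0.45), UBAP2L at 0.02 (-0.14 to 0.18), NUFIP2 at -0.18 (-0.54 to 0.18) and G3BP1 at -0.14 (-0.70 to 0.40). USP10, with 96.6 reads in the IgG libraries, was at 0.62 (-0.02 to 1.28). This difference has no test, since each value is 1 library.

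In the additive test of doxycycline over untreated with antibody as covariate, 0 of the 7 mRNAs passed, with limma adjusted p-values from 0.850 for UBAP2L to 0.999 for NUFIP2. Among the 9594 genes 0% were called in either direction, while 442 had an unadjusted p under 0.05. The log2 differences of the 7 ran from -0.38 (SE 0.26) for UBAP2L to 0.28 (SE 0.28) for G3BP1. G3BP2 was at -0.19 (SE 0.33), a mean of its opposite values with the antibodies.

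The table divides a gene's reads between entries that carry the same symbol and no further name, so the entries cannot be matched to transcripts. CAPRIN1 had 2 entries, and the larger held 91.8% to 97.2% of its reads in the 4 libraries. G3BP1 also had 2, whose division differed widely: the second entry held 0.0161% (IgG) and 13.9% (EXOSC10) of the reads in untreated cells, and 2.94% (IgG) and 72.2% (EXOSC10) with doxycycline. Between the EXOSC10 libraries the entry shares of G3BP1 differed by 58.2%, percentile 81.8 of 2647 genes with several entries, whose median was 25.4%. Its first entry held 152 reads untreated and 149 with doxycycline there, and its second 24.7 and 388. CAPRIN1, at 2.10%, was at percentile 11.2.

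For G3BP2, the lower level with doxycycline than untreated in the EXOSC10 pair lay in the third of its 3 entries. This entry went from 138 reads untreated to 24.4, or from 26.4 to 1.77 scaled CPM. The second entry went from 73.3 to 278 reads, or from 14.0 to 20.2 scaled CPM, and the first stayed below 1 CPM. From IgG to EXOSC10 with doxycycline, all 3 entries were lower. In scaled CPM the first went from 19.4 to 0.668, the second from 117 to 20.2 and the third from 31.1 to 1.77. Taking the largest entry of each gene in place of the sum, G3BP2 was at 0.41 in the EXOSC10 pair and at -0.64 in the change of enrichment, short of 2-fold. G3BP1, whose larger entry is the first, was then at -1.52 in the EXOSC10 pair and at -1.88 in the change of enrichment. The entry shares of CAPRIN2 differed almost completely between the EXOSC10 libraries (91.3%). USP10 and NUFIP2 had 1 entry each.

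**Figure D5:**
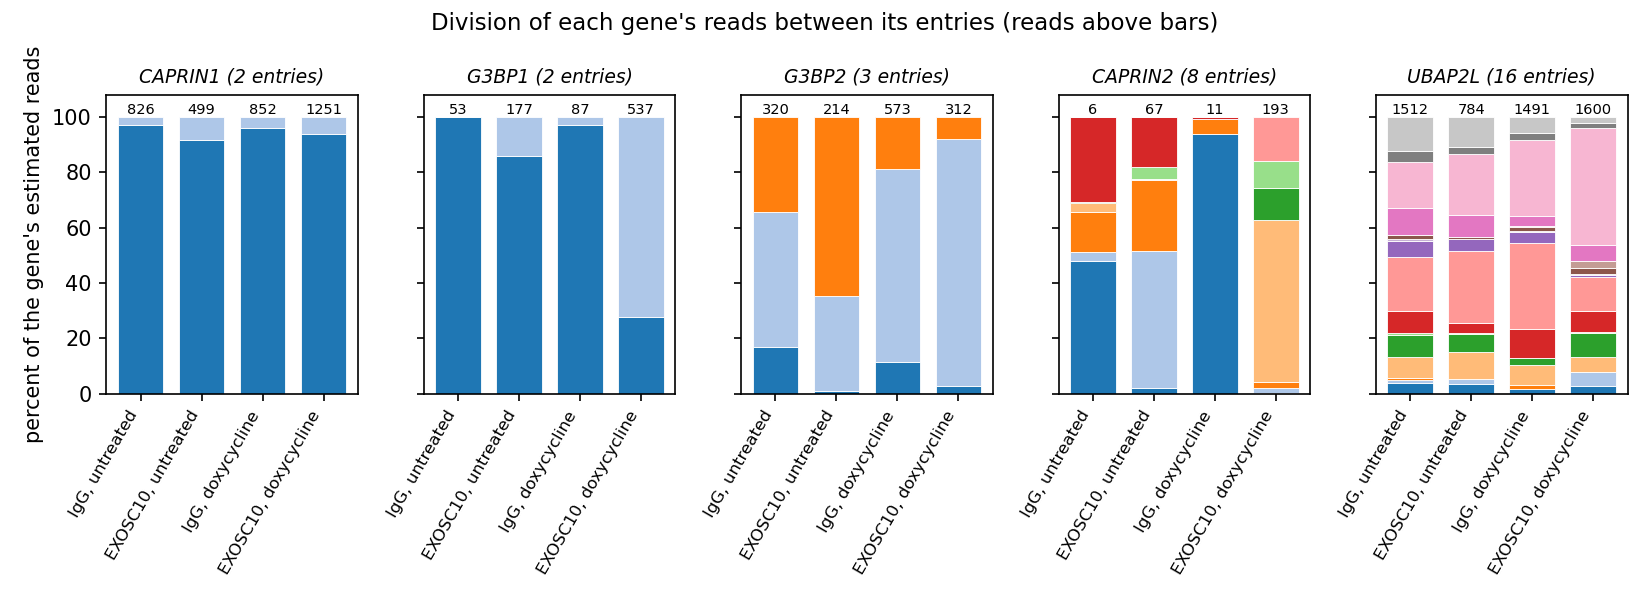
Percent of each gene's estimated reads on its entries in the 4 libraries, for the 5 genes with several entries; each colour is 1 entry of that gene, colours are not shared between panels, and the gene's reads stand above the bars. The second entry of G3BP1 holds 72.2% of its reads in the doxycycline EXOSC10 library, while CAPRIN1 stays at 91.8% or more on 1 entry.

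Other genes of the network came from 5 lists. Of 19 further partners of G3BP and Caprin-1, 14 were lower with EXOSC10 than with IgG in the limma test and 0 higher, with a median log2 difference of -1.78 where all genes had 0.21 and 15.9% of them were lower. In the EXOSC10 pair 0 of the 19 reached 2-fold with doxycycline, with a median of -0.36 against -0.04 for all genes. The largest ratios were those of FXR2 (-0.95, -1.11 to -0.80) and FMR1 (-0.88, -1.17 to -0.61), which encode fragile X family proteins, of the m6A reader gene YTHDF2 (-0.95, -1.16 to -0.76) and of the RNA helicase gene DDX3X (-0.86, -0.95 to -0.77). In the change of enrichment 4 of 16 were 2-fold lower and 0 higher, beside 10.9% and 4.75% of all genes: DDX3X (-1.31), FMR1 (-1.26), YTHDF2 (-1.25) and PRRC2A (-1.37), the last named after its value was seen. G3BP2 passed the same 2-fold rule that picked these 4, so its nearness to them is no sign of likeness. The median of the 16 was -0.62.

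Of 26 other stress granule proteins, 13 were lower with EXOSC10 in the limma test and 0 higher (median -1.0), beside 15.9% and 1.36% of all genes. In the EXOSC10 pair 0 of 23 reached 2-fold, with a median of -0.30. ELAVL1, which binds AU-rich mRNAs, was at -0.97 (-1.24 to -0.71), the cap-binding factor gene EIF4E at -0.84 (-1.04 to -0.64), YBX1 at -0.70 (-0.76 to -0.64) and TARDBP, which encodes TDP-43, at -0.57 (-0.72 to -0.41). The granule disassembly list had 9 of 10 genes with entries, and 4 of 8 tested were lower with EXOSC10 (median -0.80), beside the same 15.9% of all genes. Among its genes with 100 reads, the largest EXOSC10 ratios with doxycycline were those of the segregase gene VCP (-0.83), of the chaperone gene HSPA8 (-0.73), of USP5 (-0.64) and of NPLOC4 (-0.34), and 0 of 8 reached 2-fold.

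Phosphorylation of eIF2 alpha triggers granules, and its kinases and phosphatases formed a further list. Of its 7 genes, 1 was lower with EXOSC10 in the limma test, EIF2S1 (-1.34, named after its value was seen), which encodes eIF2 alpha itself, and 0 were higher (median 0.41), near the 15.9% of all genes. In the EXOSC10 pair 1 of 7 was 2-fold higher with doxycycline, beside 6.06% of all genes. It was the kinase gene EIF2AK2 at 1.51 (0.97 to 2.19), with 26.9 reads untreated and 208 with doxycycline. Its IgG ratio of 1.49 rests on 12.4 reads untreated and 46.0 with doxycycline, below the minimum. PPP1R15B, a phosphatase subunit gene, was at 0.91 (0.56 to 1.29), EIF2AK4 at 0.24 (-0.10 to 0.61) and EIF2AK3 at -0.18 (-0.67 to 0.33). Of the mRNAs known to be bound by Caprin-1 with G3BP1, CCND2 has no entry analysed here, and MYC was at -0.19 (-0.34 to -0.04) in the EXOSC10 pair and 0.64 in EXOSC10 over IgG (limma adjusted p = 0.117).

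By Euclidean distance between centred log2 levels over the 4 libraries, the genes nearest to CAPRIN1 among 2945 were SLC2A1 (0.043), CDC5L (0.046), RBFOX2 (0.053), ACTN4 (0.075) and CDC42 (0.092). Their EXOSC10 over IgG ratios ran from -1.75 to -1.62 untreated and from -1.56 to -1.47 with doxycycline. Of the members with enough reads, UBAP2L ranked 228 (0.40), NUFIP2 441 (0.51), G3BP2 1496 (1.01) and G3BP1 2836 (2.32), where the median gene was at 1.00. With 4 libraries, such distances describe these libraries only.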

How the data were processed

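RNA immunoprecipitation libraries of 4 groups, 1 library each, were analysed. The authors deposited 1 table of CPM (reads scaled to 1000000 per library), read as such from its values, with a constant of 0.0001 on each of 24015 entries. STAR, Partek and hg38 are named, without versions, per the submitters' processing notes; how reads were counted, and on which strand, is not given in the sources used here. Even the least abundant entry peaked at 10.0 reads, so weaker genes were not analysed here.

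The constant was subtracted and the entries of a symbol summed. Low values lay on steps of 1 read (0.132 to 0.269 CPM), which gave estimated reads. Between 65.8% and 71.1% of genes in a library lay within 0.05 of a whole read, so no count model was used. CAPRIN2 and UBAP2L held fractions in all 4 libraries. No overlapping gene of a member has an entry analysed here.

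CPM was divided by TMM factors (0.452 to 2.50; trims of 30% and 5%). Ratios are differences of log2(CPM + 0.2), which understates those of low genes. Intervals are Clopper-Pearson at 95% on estimated reads, or from summed reciprocal reads for changes of enrichment and of gene against gene. They cover counting error only and not variation between libraries. If PCR copies of a molecule were counted as separate reads, they are too narrow even for that. limma 3.58.1 (trend, Benjamini-Hochberg) used genes with 10 reads in 2 libraries. It was also run on simulated libraries, which lacked the unequal ribosomal shares of the real ones, so that run does not bear on the calls made here. Nothing in the labels speaks of separate cultures.

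Members and lists were chosen with earlier results of these data known. Named genes were the members, CERS4, CD274 and EXOSC10, up to 4 genes per list with the largest EXOSC10 ratio, and the 5 genes nearest to CAPRIN1. The EXOSC10 transcript gave 6.00 (IgG) and 15.0 (EXOSC10) reads untreated, and 21.0 and 78.0 with doxycycline. Gene places are those of the GRCh38.p14 gene table, where all 7 symbols matched. Alternatives changed the scaling, pseudocount, read minimum, use of entries, filter, covariate and trend.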

Additional observations from a re-analysis of the deposited data

Results flagged for a closer look

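G3BP2 was lower with doxycycline in the EXOSC10 libraries (-0.85, -1.11 to -0.60) and higher in the IgG libraries (0.48, 0.28 to 0.68), with intervals on opposite sides of 0. The difference, a change of enrichment of -1.32 (-1.65 to -1.01), was not tested, since each antibody has 1 library per treatment. Relative to CAPRIN1 reads, which needs no scaling, G3BP2 was at -0.78 (-1.07 to -0.49) with EXOSC10 and at 0.80 (0.55 to 1.04) with IgG. The pattern did not hold under all alternatives: with total counts the EXOSC10 and IgG values were 0.16 and -0.18, and the change of enrichment 0.35. With the largest entry only they were 0.41 and 1.04, the change was -0.64, and the EXOSC10 value relative to CAPRIN1 turned to 0.57.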

How the results depend on the processing

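No paired analysis was possible because each group is 1 library and the labels give no replicate numbers; the additive tests take treatment or antibody as covariate in its place. Of members at 2-fold, the EXOSC10 pair (0 higher, 0 lower) gave 3 higher with total counts (3150 of 6584 genes). It gave 1 higher and 1 lower with the largest entry only (all genes 712 and 514). The IgG pair (0 and 0) gave 1 lower with total counts and 1 higher with the largest entry only. EXOSC10 over IgG untreated (0 higher, 4 lower) gave 2 and 1 with total counts, 2 and 0 with non-ribosomal reads, and 1 higher with a minimum of 20 reads or with none. It gave 3 lower with upper quartile scaling or with the largest entry only, where NUFIP2 fell short of 2-fold. With doxycycline (2 and 4) EXOSC10 over IgG gave 5 and 0 with total counts and 1 higher with median-of-ratios factors. It gave 3 higher and 1 lower with non-ribosomal reads, and 1 higher and 5 lower with the largest entry only (all genes 993 and 1513). The change of enrichment (0 and 1) gave 4 and 0 with total counts. The additive antibody test (1 and 4) gave 0 and 0 with total counts, 3 and 2 with non-ribosomal reads, and 0 and 0 without trend.

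Of the values called under TMM, CAPRIN1 (1.01), UBAP2L (0.56) and NUFIP2 (1.22) changed sign with total counts in EXOSC10 over IgG with doxycycline. So did G3BP2 (0.35) in the change of enrichment, and CAPRIN1 (0.0502) and NUFIP2 (0.47) in the additive antibody test. Values not called turned too. In the change of enrichment these were G3BP1 (1.52), NUFIP2 (1.49) and, below the read minimum, CAPRIN2 (1.35). In the IgG pair they were G3BP1 (-0.30), G3BP2 (-0.18), NUFIP2 (-0.58) and, below the minimum, CAPRIN2 (-0.22). In the EXOSC10 pair every ratio became positive. With the largest entry only, signs turned for G3BP1 in the EXOSC10 pair (-1.52) and over IgG with doxycycline (-1.27), for CAPRIN2 over IgG untreated (-0.21), for G3BP2 in the EXOSC10 pair (0.41), and for UBAP2L in the EXOSC10 (0.45) and IgG (0.38) pairs. CAPRIN2 also turned in the IgG pair (-0.49) and in the change of enrichment (5.54). Its EXOSC10 pair went from 0.12 to 5.05, where that entry held 0.217 reads untreated and 113 with doxycycline. At this setting G3BP2 (0.57) and UBAP2L (0.60) against CAPRIN1 changed sign in the EXOSC10 pair, as did UBAP2L in EXOSC10 over IgG (0.27 untreated, 0.20 with doxycycline) and G3BP2 against G3BP1 in the EXOSC10 pair (1.95). A pseudocount of 1 CPM kept the direction and side of the threshold of all 49 member values, and dropping the covariate or the filter those of 14 each. The causes were not tested.

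Over all genes, the splits of higher and lower with total counts were 3150 and 8 in the EXOSC10 pair, 12 and 803 in the IgG pair, 1133 and 523 and 5080 and 34 in EXOSC10 over IgG without and with doxycycline, 2275 and 11 in the change of enrichment, and 514 and 6 in the additive antibody test (130 and 1522 with TMM). With non-ribosomal reads the splits in EXOSC10 over IgG were 1385 and 305, and 3258 and 662, and 3501 and 588 in that test. The test of doxycycline called 11 genes with total counts and 4 without the filter. Reads limit CAPRIN2 and USP10 most.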

Other observations

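UBAP2, the paralogue of UBAP2L, was singled out after its values were seen. It had 35.7 (IgG) and 31.5 (EXOSC10) reads untreated, and 36.6 (IgG) and 114 (EXOSC10) with doxycycline. Between the EXOSC10 libraries it was at 0.44, and its log2 difference of EXOSC10 over IgG was -0.75 (limma adjusted p = 0.273), beside -1.92 for UBAP2L; the difference of these was not tested. The 16 entries of UBAP2L divided its reads differently in each library: the entry with the largest share in the doxycycline EXOSC10 library held 42.3% there and 22.1% without doxycycline, beside 27.5% and 16.7% with IgG. Such a division was common among genes with several entries. Between the EXOSC10 libraries the shares of UBAP2L differed by 34.4%, percentile 61.4, where the median was 25.4%. Between the untreated libraries they differed by 14.4%, percentile 37.2, where the median was 21.3%.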
